A study of Mus musculus with 19 samples.

Results

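Transcript counts of 10 genes of the Nodal/activin pathway were examined in mouse pluripotent cells, picked by symbol from the 23420 genes listed for each library. They are the ligand Nodal, its co-receptor Tdgf1 (Cripto), the type II receptor Acvr2b, the signal transducers Smad2 and Smad3, their DNA-binding partner Foxh1, and the inhibitors Lefty1, Lefty2, Smad7 and Skil. The 19 libraries came from 14 cultures of induced pluripotent stem cells (iPSC), 3 lines of embryonic stem cells (ESC) and 2 lines of epiblast stem cells (EpiSC), sequenced to ask how close iPSC of strains that resist reprogramming come to the ESC state. All iPSC were made from embryonic fibroblasts with a lentivirus that expresses Oct4, Klf4, Sox2 and Myc constitutively, and feeder fibroblasts were depleted before RNA was taken. The 129S1/SvImJ (129) iPSC were male clones 1 and 17 and female clones 5 and 8 in ESC/LIF medium, and clones 1 and 17 again after a move to 2iS medium, which is ESC/LIF medium with serum plus inhibitors of GSK3B and MEK. The NOD/ShiLtJ (NOD) iPSC were male clones 3 and 35 and female clones 7 and 52, and the WSB/EiJ (WSB) iPSC were male clones 12 and 25 and female clones 23 and 28, all derived and kept in 2iS. The ESC were 1 male line of each strain, kept in ESC/LIF medium with inhibitors of the same kinases. The EpiSC were a male NOD line and a male line of the 129/Sv background in EpiSC medium, and no WSB EpiSC was sequenced. Each ESC and EpiSC strain was thus a single line. All ESC were at passage 6, the NOD and 129 EpiSC at passages 38 and 16, and the iPSC at passages 16 to 31. Cell state cannot be told apart from medium or from the laboratory that supplied the line, nor the ESC state from passage.

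Nodal and activin bind type II and type I serine/threonine kinase receptors, and Nodal also needs a co-receptor such as Tdgf1. The receptors phosphorylate Smad2 and Smad3, which enter the nucleus with Smad4 and act on target genes with partners such as Foxh1, and among the targets are Nodal itself and the feedback inhibitors Lefty1 and Lefty2. In the primed state of EpiSC, activin and Nodal signalling is known to sustain pluripotency, whereas mouse ESC self-renew through LIF.

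Between 92996 and 567432 read pairs were counted on genes per library, of 6082886 to 16307859 that aligned uniquely. In 17 libraries this was 1.15% to 1.74% of the uniquely aligned read pairs, and in both NOD male iPSC it was 5.59% and 5.62%, so those 2 libraries stand apart and were kept out of the comparison of states. Conditions were taken from sample titles, because the other labels of the same sample named another condition in all 19 libraries; the sex given in a title was at odds with the counts of 4 genes of Chromosome Y in 0 of 19. The libraries were stranded, and the strand setting of the count was not given in the sources used here: genes whose exons overlap exons on the opposite strand made up 24.4% of the 21785 genes matched to the annotation and took 60.3% to 76.1% of the counts in the 17 libraries, against 37.6% to 38.2% in the NOD males. None of the 10 genes has such an overlap (0 of 10). Naive markers followed the labelled states: 12 of them summed to 133 to 420 counts in the other 12 iPSC and 138 to 293 in ESC. In EpiSC they summed to 5 and 7, and 8 of the 12 were at 0. As a sum, 10 primed markers had 96 and 110 counts in EpiSC, 18 to 34 in ESC and 9 to 52 in the 12 iPSC. Not each of them followed the labels, since Otx2 had 6 counts over both EpiSC and 10 over the ESC.

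Parts of the transcripts of 3 of the genes are shared with other genes, and how many of their counts lie there was not tested. In their longest coding transcripts, 17.9% of the 50-base windows of Lefty1 occur unchanged in Lefty2, 11.6% of those of Lefty2 occur in another gene, and 12.5% of those of Tdgf1 occur in the pseudogene Tdgf1-ps1, whereas the share was 0.00% for the other 7. Lefty1 and Lefty2 lie 35919 bases apart on chromosome 1, their coding sequences are 91.97% identical, and the longest stretch without a difference is 140 bases.

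Upstream sequence from RefSeq (GRCm38.p6) was at hand for Nodal, Tdgf1, Smad3 and Acvr2b. The 250 bases before the Tdgf1 start, chr9:110946159-110946408 on the minus strand, are shown because Tdgf1 had the most counts of the 10 genes and differed between states. Capitals mark matches on either strand to CAGAC, a motif bound by SMAD proteins, and to AATNNACA, a motif bound by FOXH1; the motifs do not overlap here.
Tdgf1: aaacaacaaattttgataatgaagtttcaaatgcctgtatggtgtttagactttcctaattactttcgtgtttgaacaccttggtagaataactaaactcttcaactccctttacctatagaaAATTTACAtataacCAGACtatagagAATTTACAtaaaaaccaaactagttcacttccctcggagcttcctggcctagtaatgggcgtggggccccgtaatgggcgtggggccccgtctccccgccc
The Tdgf1 stretch held 2 matches to AATNNACA, starting 127 and 101 bases before the start site, and 1 match to CAGAC between them, 113 bases before it. Across 32817 promoter stretches of the same length, 10.9% held AATNNACA and 42.2% held CAGAC. The Acvr2b stretch held 1 CAGAC, and those of Nodal and Smad3 held 0 of either motif. These matches describe letters only.

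Counts on the 10 genes were low. Since the strand setting of the count is unknown, a low count is not read here as a low transcript level, and the part of strand in the counts was not tested. Over the 17 libraries the 10 genes together had 36 counts in the NOD EpiSC and 65 in the 129 EpiSC, 101 to 125 in the 3 ESC and 42 to 117 in the 12 iPSC. As a share of gene counts this was 0.0163% and 0.0339% in EpiSC and 0.0826% to 0.0977% in ESC. In the 12 iPSC it was 0.0283% to 0.0679%, below every ESC, and the lowest, 129 female clone 5, was also below the 129 EpiSC. The NOD EpiSC library was the one with the most uniquely aligned read pairs and the fewest counts on the 10 genes. Libraries are compared in CPM (counts per 1000000), normalized by edgeR's TMM method, and fold changes are log2 values from edgeR's quasi-likelihood test, with adjusted p-values over all genes tested (Benjamini-Hochberg). Before TMM, 3 counts were worth 5.29 to 32.3 CPM, depending on the library. Only Nodal, Tdgf1, Smad2, Lefty2 and Skil passed the filter on low counts, which a gene could pass through iPSC or ESC libraries alone. Acvr2b, Smad3, Foxh1, Lefty1 and Smad7 did not and are described by their counts.

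**Figure D1:**
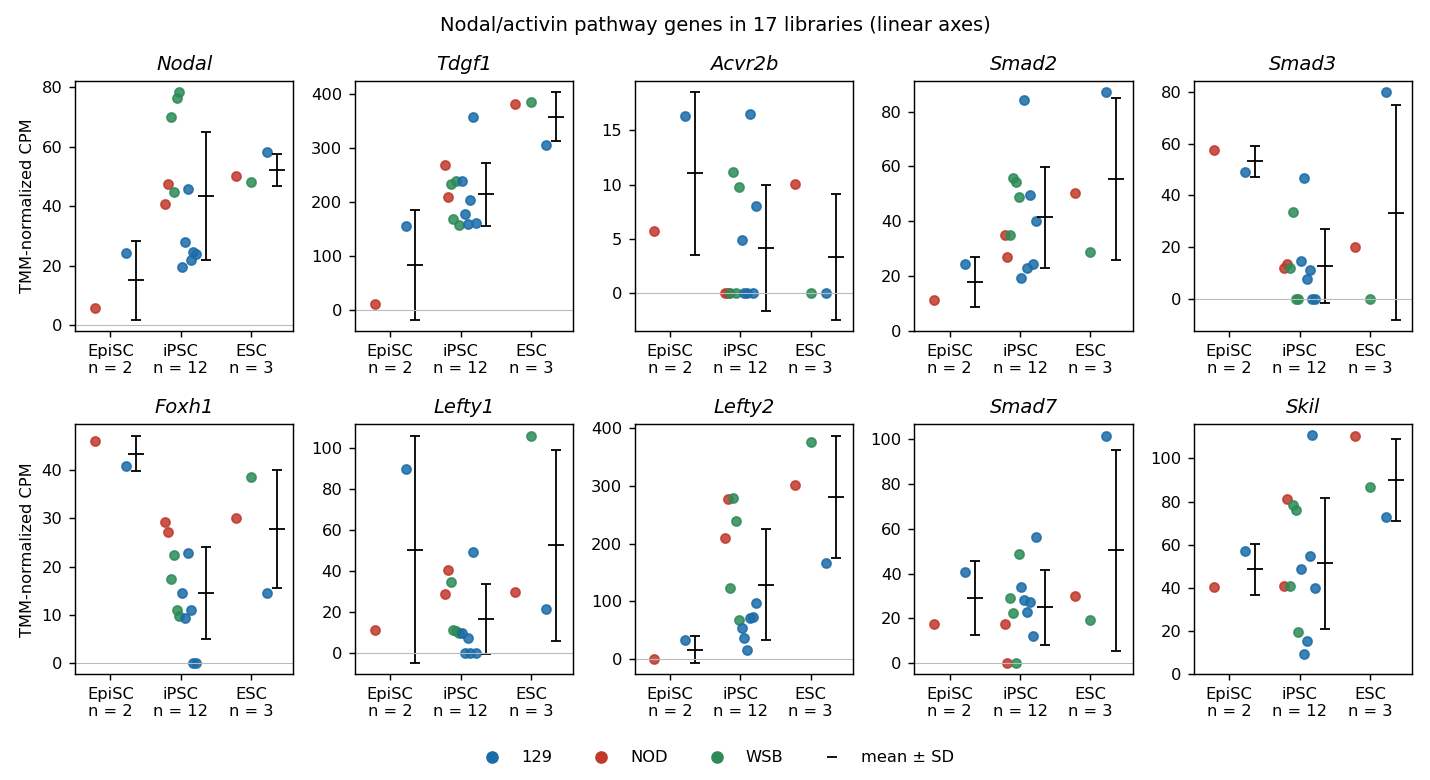
TMM-normalized CPM (linear axes) of the 10 genes in 2 EpiSC, 12 iPSC and 3 ESC libraries, 1 point per library coloured by strain, with mean ± SD in black. Both EpiSC points of Tdgf1 lie below every iPSC and ESC point, and both EpiSC points of Foxh1 lie above them all.

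The ligand gene Nodal (ENSMUSG00000037171.6, chr10:61417972-61425338, plus strand) had 1 count in the NOD EpiSC and 3 in the 129 EpiSC. The NOD, WSB and 129 ESC had 5, 5 and 8 counts. In the 12 iPSC the lowest was 2, the median 5.0 and the highest 12, which was WSB male clone 12. Both EpiSC were below all 3 ESC, and overlapped with the iPSC. The means were 15.1 ± 13.2 CPM in EpiSC (SD, n = 2), 52.2 ± 5.24 in ESC (n = 3) and 43.5 ± 21.4 in iPSC (n = 12). No difference passed the test: the log2 fold change was -1.84 ± 0.80 (SE) in EpiSC versus ESC with edgeR (adjusted p = 0.124) and 1.55 ± 0.71 in iPSC versus EpiSC (adjusted p = 0.106). These values moved to -1.05 and 0.76 without the NOD EpiSC and to -3.00 and 2.71 without the 129 EpiSC, and none passed. Scaled to uniquely aligned read pairs in place of gene counts, the difference between iPSC and EpiSC was 2.09 and did pass (edgeR adjusted p = 0.0304), beside a median of 0.62 over all genes. Among iPSC, mean CPM was 67.3 ± 15.4 in WSB (n = 4), 44.1 ± 4.62 in NOD females (n = 2), 27.9 ± 12.0 in 129 in ESC/LIF (n = 4) and 26.1 ± 2.82 in 129 in 2iS (n = 2). These groups also differ in sex, medium or passage. Nodal did not pass the filter on low counts in the strain comparisons, so a strain difference was not tested.

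The co-receptor gene Tdgf1 (ENSMUSG00000032494.12, chr9:110939603-110946158, minus strand) separated EpiSC from every other library. It had 2 counts in the NOD EpiSC and 19 in the 129 EpiSC. The NOD, WSB and 129 ESC had 38, 40 and 42 counts, and the 12 iPSC had 15 to 49 with a median of 25.5. In CPM both EpiSC (11.5 and 155) were below all iPSC (156.5 to 357) and all ESC (305 to 386). The 129 EpiSC was close to the lowest iPSC, which was WSB female clone 28. Tdgf1 was lower in EpiSC than in ESC by a log2 fold change of -2.19 ± 0.55 (4.56-fold; edgeR adjusted p = 0.00998) and higher in iPSC than in EpiSC by 1.46 ± 0.49 (2.75-fold; edgeR adjusted p = 0.0290). Both calls rested on the NOD EpiSC: without it the values were -1.17 (edgeR adjusted p = 0.0896) and 0.45 (adjusted p = 0.474). Without the 129 EpiSC they were -4.85 (edgeR adjusted p = 0.000135) and 4.12 (adjusted p = 0.000157). With the NOD male iPSC in the fit the values were -2.15 (adjusted p = 0.0569) and 1.57 (adjusted p = 0.0540).

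Acvr2b (ENSMUSG00000061393.14, chr9:119402118-119434995, plus strand), a type II receptor for activin and Nodal, had few counts. Its counts were 1 and 2 in EpiSC, 1, 0 and 0 in the NOD, WSB and 129 ESC, and 0 in 7 of the 12 iPSC with a highest count of 3. At this depth no difference was detectable. The other type II receptor for these ligands, Acvr2a, had more counts, with 131 over both EpiSC (at most 86), 20 to 45 in ESC and 17 to 57 in the 12 iPSC, and the type I receptors Acvr1b and Tgfbr1 had at most 6 counts in any of these libraries.

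Smad2 and Smad3 carry the signal to the nucleus. Smad2 (ENSMUSG00000024563.16, chromosome 18) had 2 and 3 counts in the NOD and 129 EpiSC, 5, 3 and 12 in the NOD, WSB and 129 ESC, and 2 to 9 in the 12 iPSC with a median of 5.0. In CPM both EpiSC were below all ESC. The log2 fold changes of Smad2 were -1.66 ± 0.74 in EpiSC versus ESC (edgeR adjusted p = 0.135) and 1.18 ± 0.66 in iPSC versus EpiSC (adjusted p = 0.186). Smad3 (ENSMUSG00000032402.12, chr9:63646767-63757994, minus strand) went the other way. It had 10 and 6 counts in the NOD and 129 EpiSC, 0 to 5 in the iPSC with 4 of the 12 at 0, and 2, 0 and 11 in the NOD, WSB and 129 ESC. Both EpiSC (57.5 and 48.9 CPM) were above all iPSC (0 to 46.9), and the 129 ESC (79.9 CPM) was above both. In a fit without the filter, Smad3 was lower in iPSC than in EpiSC by a log2 value of -1.93 ± 0.66 (edgeR adjusted p = 0.0347). With the filter and only 1 EpiSC line left, Smad3 was tested and did not pass, at -1.90 without the NOD EpiSC (edgeR adjusted p = 0.304) and -2.11 without the 129 EpiSC (adjusted p = 0.238). Among iPSC the highest Smad3 count was 5 in 129 clone 1 in 2iS, the same clone that had 3 counts in ESC/LIF.

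Foxh1 (ENSMUSG00000033837.5, chr15:76668225-76669948, minus strand), the forkhead partner of Smad2 and Smad3, had 8 and 5 counts in the NOD and 129 EpiSC. The NOD, WSB and 129 ESC had 3, 4 and 2 counts, and the 12 iPSC had 0 to 5 with a median of 2.0 and 2 libraries at 0. In CPM both EpiSC (46.0 and 40.8) were above all ESC (14.5 to 38.6) and all iPSC (0 to 29.2). The unfiltered fit gave -1.37 ± 0.68 in iPSC versus EpiSC, which did not pass (edgeR adjusted p = 0.217).

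The feedback inhibitor Lefty2 (ENSMUSG00000066652.5, chr1:180893108-180899103, plus strand) showed the largest fold change of the 5 tested genes. It had 0 counts in the NOD EpiSC and 4 in the 129 EpiSC. The NOD, WSB and 129 ESC had 30, 39 and 23 counts, and the 12 iPSC had 2 to 41 with a median of 12.5. The EpiSC were below all 3 ESC in CPM (0 and 32.6 against 167 to 376) and overlapped with the lower iPSC, the lowest being 129 female clone 5 at 15.2 CPM. Lefty2 was lower in EpiSC than in ESC by a log2 value of -4.23 ± 1.11 (edgeR adjusted p = 0.0129) and higher in iPSC than in EpiSC by 3.10 ± 1.05 (edgeR adjusted p = 0.0313). Without the NOD EpiSC these were -3.03 (edgeR adjusted p = 0.115) and 1.92 (adjusted p = 0.285). In iPSC the mean was 244 ± 47.7 CPM in NOD females (n = 2), 178 ± 98.7 in WSB (n = 4), 67.0 ± 41.8 in 129 in 2iS (n = 2) and 53.5 ± 27.1 in 129 in ESC/LIF (n = 4). Both NOD female iPSC (210 and 277 CPM) and WSB clones 23 and 25 (280 and 240 CPM) lay within the range of the ESC. WSB clones 12 and 28 (123 and 68.5 CPM) and all 129 iPSC (at most 96.5 CPM) were below the lowest ESC. WSB clone 28 was also below the highest 129 iPSC.

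Its paralog Lefty1 (ENSMUSG00000038793.8, chr1:180935022-180938400, plus strand) had 2 counts in the NOD EpiSC and 11 in the 129 EpiSC. The NOD, WSB and 129 ESC had 3, 11 and 3 counts, and the 12 iPSC had 0 to 6 with 3 at 0, among them both 129 libraries in 2iS. So the 129 EpiSC had 11 Lefty1 and 4 Lefty2 counts, while each of the 3 ESC had more Lefty2 than Lefty1. Given their shared sequence, the division of counts between the pair is uncertain. Their sum was 2 and 15 in the NOD and 129 EpiSC and 33, 50 and 26 in the NOD, WSB and 129 ESC.

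Smad7, which blocks the receptors, and Skil (SnoN), a co-repressor of Smad complexes, completed the set. Smad7 (ENSMUSG00000025880.11, chromosome 18) had 3 and 5 counts in the NOD and 129 EpiSC, 3, 2 and 14 in the NOD, WSB and 129 ESC, and 0 to 7 in the iPSC. All 3 groups overlapped. Skil (ENSMUSG00000027660.16, chr3:31095058-31122577, plus strand) had 7 counts in each EpiSC, 11, 9 and 10 in the NOD, WSB and 129 ESC, and 1 to 12 in the iPSC with a median of 7.0. Both EpiSC (40.3 and 57.1 CPM) were below all ESC (72.7 to 110) and inside the iPSC range. Skil differed by log2 values of -0.88 ± 0.64 in EpiSC versus ESC (edgeR adjusted p = 0.383) and 0.06 ± 0.56 in iPSC versus EpiSC (adjusted p = 0.960).

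Read across the genes, EpiSC versus ESC gave 2 of 5 tested genes lower and 0 higher, where 6.85% of all 3986 genes tested were called lower. For iPSC versus EpiSC, 2 of 5 were higher and 0 lower (11.2% of all genes were called higher). The filter asked for enough counts in as few libraries as the smallest state has, which is 2. A gene could pass through iPSC or ESC libraries alone, and Nodal and Smad2 had at most 3 counts in an EpiSC. These tallies can thus lean toward genes low in EpiSC, and they do not speak for all 10. In the unfiltered fit of iPSC versus EpiSC, Smad3 (-1.93), Foxh1 (-1.37), Lefty1 (-1.35), Acvr2b (-1.03) and Smad7 (-0.03) were on the lower side. Both comparisons share the EpiSC libraries. Without overlap, EpiSC were below ESC in CPM for 5 of the 10 genes (9.94% of the 16808 genes with a count) and above for 1 (13.5%), and they were below iPSC for 1 (2.75%) and above for 2 (7.43%). With so few libraries such separation describes these lines. Within strain, Lefty2 and Tdgf1 ran the same way in both: Lefty2 was 0 CPM in EpiSC and 301 in ESC of NOD and 32.6 and 167 in 129, and Tdgf1 was 11.5 and 381.5 in NOD and 155 and 305 in 129. Fibroblast markers differed between the same groups, since 12 of them summed to 72 to 160 counts in ESC, 16 and 24 in EpiSC and 0 to 9 in the 12 iPSC; Dcn and Twist2 were at 0 in ESC and Dcn and Lum at 0 in EpiSC. Their part in the difference between EpiSC and ESC was not tested. In bulk samples fewer cells that express a gene and less RNA per cell cannot be told apart.

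**Figure D2:**
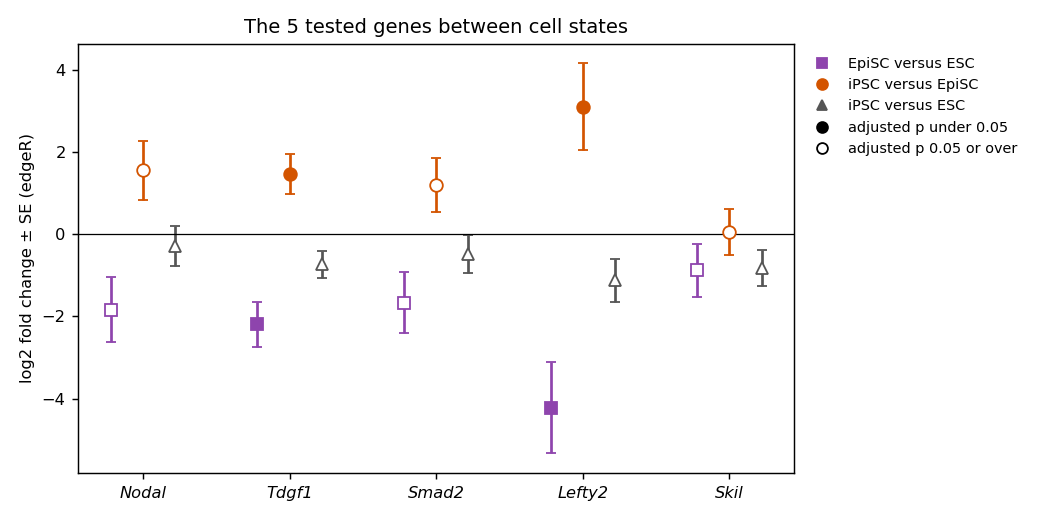
Log2 fold change ± SE (edgeR) of the 5 tested genes in EpiSC versus ESC (squares), iPSC versus EpiSC (circles) and iPSC versus ESC (triangles), filled where the adjusted p was under 0.05. The filled points are Tdgf1 (-2.19 and 1.46) and Lefty2 (-4.23 and 3.10) in the comparisons with EpiSC.

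**Figure D3:**
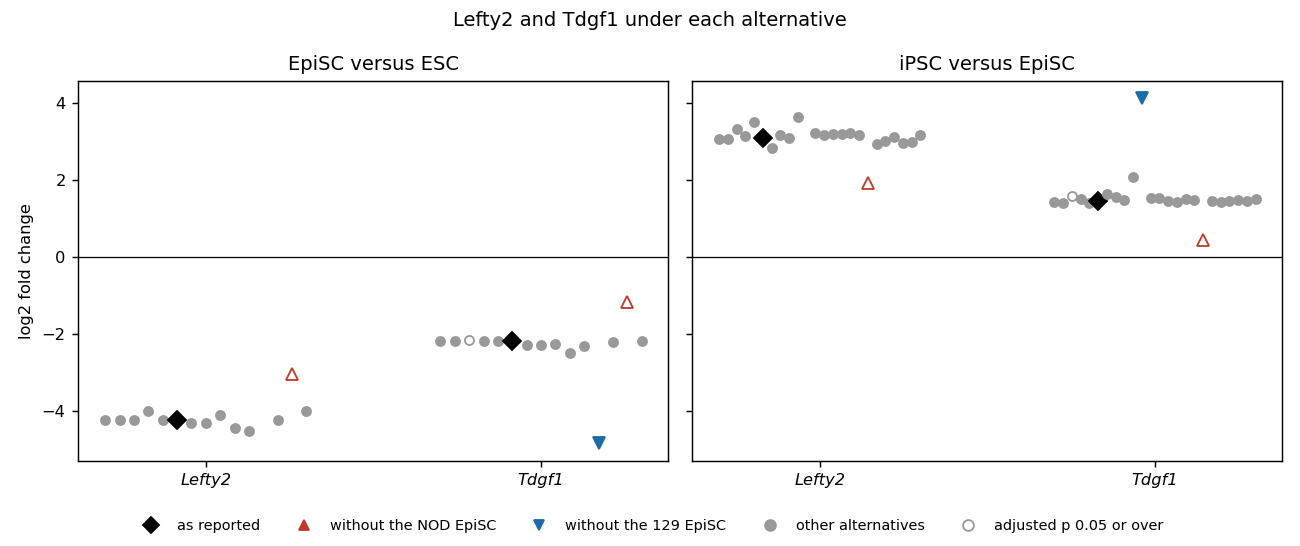
Log2 fold change of Lefty2 and Tdgf1 in both comparisons with EpiSC as reported (diamonds) and under each alternative, open where the adjusted p was 0.05 or over. Without the NOD EpiSC (red triangles) the values moved toward 0 and none passed; without the 129 EpiSC only Tdgf1 is drawn, since the remaining EpiSC had 0 Lefty2 counts.

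Between iPSC and ESC none of the 5 passed the test (0 of 5 with edgeR and with DESeq2, against 6.22% of all genes), although Lefty2 and Tdgf1 had an unadjusted p under 0.05. Lefty2 was at -1.13 ± 0.53 (edgeR adjusted p = 0.245) and Tdgf1 at -0.73 ± 0.33 (adjusted p = 0.211), both on the lower side in iPSC, and Skil, Smad2 and Nodal were at -0.82, -0.48 and -0.29. For Lefty2 the call depended on the filter, with an edgeR adjusted p of 0.00782 when none was applied. The 3 ESC (305 to 386 CPM of Tdgf1) overlapped with the iPSC through a single library, 129 male clone 17 in ESC/LIF at 357 CPM.

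Counts of different genes can be set side by side only per length. With the strand setting unknown, the order below ranks counts per kilobase and is not read as an order of transcript levels. Per kilobase of exon, Tdgf1 had the highest value of the 10 in ESC (136 ± 17.3 CPM per kb, n = 3) and in iPSC (81.8 ± 22.3, n = 12), followed by Lefty2 (108 ± 40.6 and 49.3 ± 36.8). The SD ranges of Tdgf1 and Lefty2 overlapped in ESC and in iPSC. In EpiSC the order changed: Foxh1 was first (31.8 ± 2.72, n = 2), Tdgf1 second (31.75 ± 38.7), Lefty1 next (28.8 ± 31.5) and Lefty2 seventh (6.25 ± 8.84), with the SD of Tdgf1 and Lefty1 larger than their means. Acvr2b was last in ESC and iPSC (0.852 and 1.07 CPM per kb).

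Over the same 17 libraries, the genes whose log2 CPM followed Tdgf1 most closely among 3985 were Pmel (Pearson r = 0.872), Xist (0.858) and Mcl1 (0.846). For Lefty2 they were Slc38a4 (0.851), Echdc2 (0.847) and Lima1 (0.829), and for Skil Tmem198b (0.707), Tmem80 (0.697) and Slc16a1 (0.675). Tdgf1 and Lefty2 themselves correlated at r = 0.721 over 17 libraries and at 0.236 over the 12 iPSC alone. The part of the states, or of single libraries such as the NOD EpiSC, in the first value was not tested. The libraries share depth and state and mix the sexes, and the strand setting of the count is unknown. These r values are descriptions, and no link between the genes, such as Xist and Tdgf1, was tested.

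In the medium comparison the 2 male 129 clones were followed from ESC/LIF into 2iS. Clone 1 was at passage 21 and then 31 and clone 17 at passage 20 and then 30, so medium and passage cannot be told apart. Tdgf1 went from 49 to 19 counts in clone 1 and from 29 to 20 in clone 17. The libraries differ in depth, and in CPM Tdgf1 averaged 169.5 ± 12.2 in 2iS (n = 2), at a log2 fold change of -0.74 ± 0.33 that did not pass (edgeR adjusted p = 0.288). Lefty2 went from 11 to 4 counts in clone 1 and from 6 to 12 in clone 17, opposite directions in the 2 clones, and its log2 fold change was 0.20 ± 0.66 (adjusted p = 0.946). Skil went from 10 to 1 counts and from 9 to 5, at -1.41 ± 0.81 (edgeR adjusted p = 0.460). None of the 3 tested genes was called (0 of 3 with edgeR and with DESeq2, 1 of 3 at an unadjusted p under 0.05, against 4.10% of all 3388 genes called). Lefty1 had 2 and 4 counts in ESC/LIF and 0 in both 2iS libraries, and the unfiltered fit did not call it (edgeR adjusted p = 0.459).

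Strain was compared within sex and medium. The WSB males were at passage 16 and the 129 males in 2iS at 31 and 30. The WSB clones were also derived in 2iS, and the 129 clones in ESC/LIF before their move to 2iS. Strain, passage and medium of derivation thus cannot be told apart there. WSB male clones 12 and 25 had 21 and 22 Lefty2 counts against 4 and 12 in the 129 male clones in 2iS. In CPM the WSB values lay above both 129 values, with a log2 fold change of 1.30 ± 0.56 that did not pass (edgeR adjusted p = 0.209) and ranged from 0.79 without 129 clone 1 to 2.15 without 129 clone 17. Tdgf1 was at 0.48 ± 0.34 (adjusted p = 0.514) and Skil at 1.05 ± 0.84 (adjusted p = 0.587; 0.40 and 2.42 without the same libraries), so 0 of 3 were called with edgeR or DESeq2 (5.05% of all genes), and 1, Lefty2, had an unadjusted p under 0.05. Between NOD and WSB females, Lefty2 was at 0.51 ± 0.46, Tdgf1 at 0.56 ± 0.34 and Skil at 0.33 ± 0.75 (edgeR adjusted p = 0.658, 0.458 and 0.883), and again 0 of 3 were called with either tool (3.98% of all genes), 0 also at an unadjusted p under 0.05. WSB female clones 23 and 28 differed from each other in Lefty2, with 25 and 7 counts.

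The NOD male iPSC had far more counts on most of the 10 genes than the other libraries. Clones 3 and 35 had 95 and 44 Nodal counts, 233 and 241 of Tdgf1, 162 and 159 of Lefty2, 39 and 21 of Foxh1, 35 and 19 of Lefty1, and 32 and 36 of Smad2. Skil had 36 and 26 counts, Smad7 19 and 13, Acvr2b 8 and 6 and Smad3 5 and 7. NOD female clones 7 and 52 had 7 and 7 counts of Nodal, 46 and 31 of Tdgf1 and 36 and 41 of Lefty2. In counts per 1000000 uniquely aligned read pairs, both NOD males were above all 17 other libraries for 9 of the 10 genes, where 47.2% of the 17155 genes with a count were so. In CPM this held for Nodal, Tdgf1 and Foxh1, 3 of the 10 (13.7% of all genes). Nodal was at 5.71 and 9.40 counts per 1000000 aligned read pairs in the males and 0.0613 to 1.29 elsewhere, and 102 and 167 in CPM against 4.53 to 74.3.

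**Figure D4:**
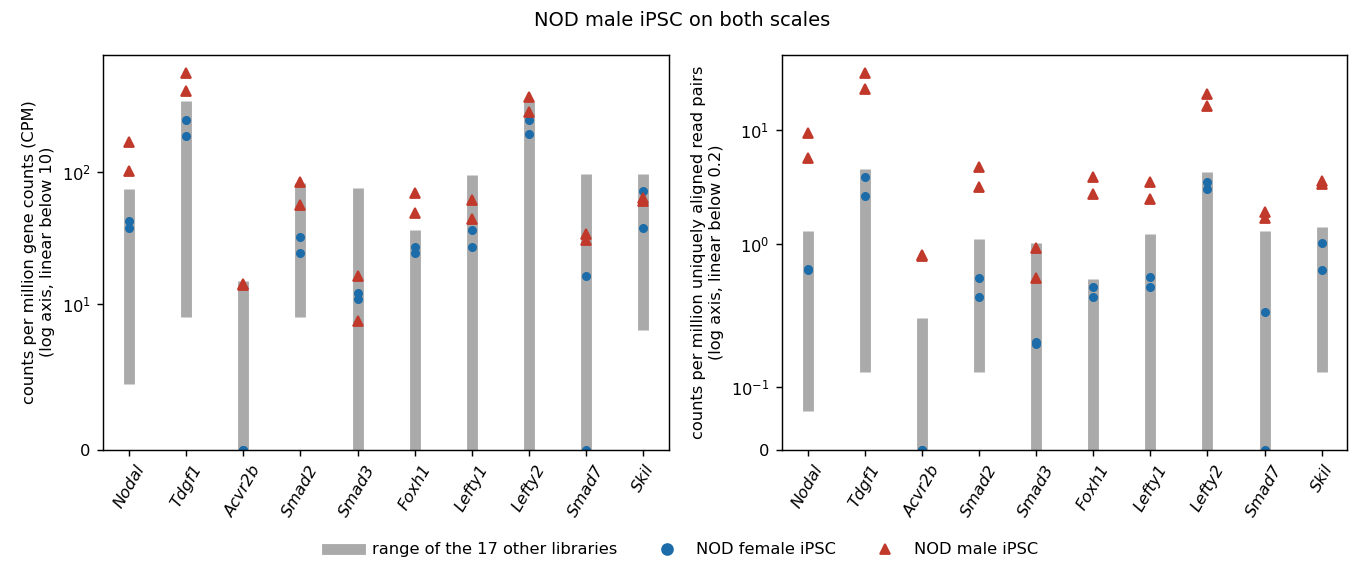
The 10 genes in NOD male iPSC (triangles) and NOD female iPSC (circles) over the range of the 17 other libraries (grey bars), in CPM before TMM (left) and counts per 1000000 uniquely aligned read pairs (right); axes are logarithmic and linear near 0. On the right 9 of 10 genes lie above the grey bars and on the left 3 of 10 do.

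With TMM, Nodal was the one member higher in NOD males than in NOD females, by a log2 fold change of 1.23 ± 0.44 (2.35-fold; edgeR adjusted p = 0.0261), 1 of 5 tested (14.4% of all genes were called higher), where the median of all genes was 0.18. This call was lost with DESeq2 (1.15, adjusted p = 0.280), without the filter (edgeR adjusted p = 0.0847), without male clone 3 (0.77, edgeR adjusted p = 0.282), without female clone 7 (1.15, adjusted p = 0.157) and without female clone 52 (1.37, adjusted p = 0.0881). Tdgf1 was at 0.62 ± 0.26 (edgeR adjusted p = 0.0621), Smad2 at 0.74 ± 0.54 (adjusted p = 0.280), Lefty2 at 0.03 ± 0.36 (adjusted p = 0.952) and Skil at -0.34 ± 0.53 (adjusted p = 0.643). Scaled to aligned read pairs all 5 were called higher, from 2.10 for Skil to 3.66 for Nodal, beside a median of 2.61 over all genes, so that Nodal, Tdgf1 (3.06) and Smad2 (3.16) were above that median and Lefty2 (2.49) and Skil below it; Skil changed sign between the scales. The share of read pairs on genes moves with these values, and its part in them was not tested. A difference between the sex difference in NOD and that in WSB passed the test for none of the 5 (0 of 5 with edgeR, DESeq2 or an unadjusted p under 0.05, against 23.4% of all genes called with edgeR), with Nodal at 1.02 ± 0.73 (edgeR adjusted p = 0.349). With aligned read pairs as library size 5 passed, and with at least 10 counts in every library Tdgf1 did (1.24, edgeR adjusted p = 0.00908).

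Other genes of the pathway were taken from lists drawn up beside the members. Between the states, 9 of the 37 listed ligands, receptors, SMADs and nuclear partners, inhibitors and convertases passed the filter, and Tgif2, a co-repressor that binds SMADs, was the one called: it was lower in iPSC than in EpiSC (-1.52 ± 0.35, edgeR adjusted p = 0.00275), with 83 counts in the 2 EpiSC and 169 in the 12 iPSC. Of all 3986 genes in that comparison 448 were called higher and 681 lower. Smurf1, a ubiquitin ligase that marks SMADs and receptors for degradation, was higher in WSB than in 129 male iPSC (2.84 ± 0.66, edgeR adjusted p = 0.00686) and lower in NOD than in WSB females (-3.42 ± 0.65, adjusted p = 9.00e-04), where 1 library held 80 of the 186 Smurf1 counts of the 12 iPSC. In NOD males against NOD females, with TMM, Acvr2a (-3.78), Gdf1 (-1.68) and Tgif2 (-1.44) were lower and Pcsk6, a convertase that can process Nodal, was higher (1.82; edgeR adjusted p = 3.70e-11, 0.0315, 0.00266 and 0.00451). These were 4 of 12 tested, where 640 of all 4457 genes were called higher and 1095 lower. Their values are given on the TMM scale only, where the median of all genes was 0.18, against 2.61 with aligned read pairs. The sign of a lower value can depend on the scale, as it did for Skil. Whether exons on the opposite strand overlap these 4 genes was not examined here. Of 8 mesendoderm genes known as targets of the pathway, 0 passed the filter. They summed to 13 and 46 counts in EpiSC, 5 in each ESC and 0 to 6 in the 12 iPSC, with Eomes at 26 counts over both EpiSC (at most 21), 13 over the 3 ESC and 13 over the 12 iPSC, and Gsc and Mixl1 at 0 in all 17 libraries.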

How the data were processed

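RNA from 19 cultures was sequenced as read pairs from stranded mRNA libraries. The authors trimmed reads with Trimmomatic, aligned them with TopHat to GRCm38 and counted them per gene with HTSeq; the strand setting and annotation were not given in the sources used here. The deposited values are raw counts, used as deposited. The 5 summary lines that name no gene (no feature, 94.4% to 98.9% of uniquely aligned read pairs) stayed out of library sizes and tests.

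Groups were taken from sample titles. Genes were filtered with filterByExpr and tested with edgeR 4.0.16 (R 4.3.3; TMM, quasi-likelihood test, Benjamini-Hochberg adjustment, threshold 0.05) over all genes that passed: 1 fit of the states (17 libraries), 1 of 12 iPSC for medium and strain, and 1 of all 14 iPSC for the NOD males. DESeq2 1.42.0, other scalings and filters, and leaving out each library were the alternatives. The edgeR fit was tried on simulated data for the state comparisons, the medium comparison and NOD males versus females. The strain comparisons, the sex difference and the other steps had no such check. Depth limits precision: 3 counts, the floor used, equal 5.29 to 32.3 CPM before TMM. Reads carried no molecular identifiers, so this covers counting error only. Where labels do not say that cultures were independent, p-values measure the spread between these samples. All replicate pairs differed beyond sampling noise.

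The 129 clones 1 and 17 appear in both media, so the clone pairs those samples. The deviations of these clones correlated at r = 0.0616 over 3986 genes. The fit of the states and the means over all iPSC counted both libraries of each clone as separate samples. Gene positions are from GENCODE M21 (GRCm38). The genes, the lists and the tests were chosen with earlier results of these data known. Named genes were the 10 members, the called genes of the other lists and the 3 genes most like each of Tdgf1, Lefty2 and Skil.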

Additional observations from a re-analysis of the deposited data

Results flagged for a closer look

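Lefty1 in WSB iPSC stood out in 1 library. Male clone 12 was at 35.0 TMM-normalized CPM, and the other 3 WSB libraries were at 9.78, 10.9 and 11.2, so that the gap to the nearest took 0.944 of the range, above Dixon's critical value of 0.829 for 4 samples. The counts behind it were 6 against 1, 1 and 1. Of 20 groups of 4 values examined this was the 1 so found, and chance gives about 1 in 20.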

How the results depend on the processing

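Of 458 values of single genes under an alternative, 401 kept direction and side of the threshold, 34 changed sign, 12 passed the threshold newly and 11 no longer passed. The 401 include genes that passed neither as reported nor under the alternative. Leaving out the WSB ESC entered both as a single library and as a setting of its own. For Nodal in NOD males versus females, 5 of 8 alternatives lost the call. The count of called genes among the 10 moved from 2 to 1 in EpiSC versus ESC and in iPSC versus EpiSC with the NOD males included, to 0 with at least 10 counts in every library (where none of the 10 was tested), and spanned 0 to 2 over fits that left out 1 library; in iPSC versus EpiSC it was 3 with aligned read pairs (Nodal added) and 3 without a filter (Smad3 added), and in iPSC versus ESC it moved from 0 to 1 without a filter. For NOD males versus females it moved from 1 to 0 with DESeq2 and without a filter, to 5 with aligned read pairs as library size, and spanned 0 to 1 with 1 library left out; for the sex difference between strains it moved from 0 to 1 with at least 10 counts and to 5 with aligned read pairs. Signs changed for Nodal in iPSC versus ESC (0.0057 with aligned read pairs, 0.0695 with NOD males included), for Lefty2 in NOD males versus females (-0.0602 with DESeq2, -0.0575 with its size factors), and for Skil there (2.10 with aligned read pairs). In the sex difference they changed for Lefty2 (-0.0901 with DESeq2, -0.0574 with its size factors, -0.0922 without a filter), Tdgf1 (-0.0135, -0.0155 and -0.0541) and Skil (2.07 with aligned read pairs). With the replicate block, which pairs the 129 clones across media, Lefty2 was -0.0059, 0 of the genes were called, and 128 of all genes against 139; the block changed no other call. With 1 library left out, the ranges that crossed 0 were Skil -0.21 to 0.32 (iPSC versus EpiSC) and -0.38 to 1.58 (NOD versus WSB), Lefty2 -0.67 to 0.68 (medium) and -0.21 to 1.82 (NOD versus WSB), Lefty2 -0.17 to 0.28 and Skil -0.74 to 0.24 (NOD males versus females), and Lefty2 -1.40 to 0.71, Tdgf1 -0.19 to 0.27 and Skil -1.92 to 0.14 (sex difference); a lone sample was assumed to vary like the other groups. Over all genes, calls in EpiSC versus ESC were 601 against 216 with at least 10 counts and 207 with NOD males; in iPSC versus EpiSC 448 higher and 681 lower against 606 and 1268 without a filter and 164 and 200 with at least 10 counts; in iPSC versus ESC 248 against 600 without a filter, 45 with at least 10 counts and 156 without the WSB ESC; for medium 139 against 56 with DESeq2 and 38 with at least 10 counts; for WSB versus 129 171 against 73 and 91 and for NOD versus WSB 135 against 45 and 52 in the same order; for NOD males versus females 1735 against 1086 with DESeq2, 3527 with aligned read pairs and 935 with at least 10 counts; for the sex difference 1041 against 3167 with aligned read pairs; the higher and lower calls went from 328 and 273 to 200 and 338, from 448 and 681 to 1081 and 325, and in iPSC versus ESC from 40 and 208 to 197 and 129 with aligned read pairs, and for NOD males from 640 and 1095 to 3460 and 67. The cause was not tested.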
